A study of Mus musculus with 6 samples.

Results

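The killer lectin-like receptor genes of the mouse were followed in 3 Dnmt3b+/- peripheral T-cell lymphomas (PTCL). Members were all genes of the table whose symbol begins with Klr, a letter from a to k and a digit, which gave 26 of 34245 genes. They comprised 11 Klra, 5 Klrb, 3 Klrc, 2 Klrg and 2 Klri genes and Klrd1, Klre1 and Klrk1. The study examined T-cell lymphomas of mice that lack 1 allele of Dnmt3b, a DNA methyltransferase, in the germline. RNA was taken from lymph nodes of terminally sick FVB/N mice, and each library came from an independent tumor of that genotype. No other treatment and no age are given in the labels. The library depths, recovered from the FPKM values as described below, were 30726570, 18969988 and 20770928 reads in tumors 1, 2 and 3. Values are FPKM, the reads on a gene corrected for the length of its exons and for library depth, and are listed in the order of the tumors. The tumors form 1 group, so nothing was tested and all values are descriptive.

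Killer lectin-like receptors are C-type lectin-like proteins of natural killer (NK) cells and of subsets of T-cells, mainly activated and memory CD8+ T-cells. Inhibitory members carry a tyrosine motif in the cytoplasm that recruits phosphatases, while activating members signal through adaptor proteins with which they pair in the membrane. Many members read MHC class I molecules or other lectin-like proteins on neighboring cells, and single cells express only some members of the Klra family.

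Members were detected in larger number in tumor 2. In tumors 1, 2 and 3 a read was found for 18, 24 and 21 members, and over all genes with whole reads for 54%, 50.1% and 47.5%. Each of the 26 members had a read in at least 1 tumor. Among genes whose values gave whole reads in every tumor, 42.8% had no read in any tumor. The numbers of members above 0.2 FPKM were 12, 19 and 12, and the shares of all genes 42.9%, 42.1% and 39.4%. Above 0.2 FPKM in every tumor were 7 members (Klrg1, Klrb1c, Klrb1b, Klrd1, Klrk1, Klrc1 and Klri1), which is 26.9% of the family compared with 36.7% of all genes, or 36.1% without 195 genes that lack a read in a tumor and pass through the value the table gives in its place. After rescaling every tumor to one FPKM total, 13 members (50%) were above 0.2, compared with 55.8% of all genes, or 42.5% without 4554 genes that lack a read in a tumor. The rescaling multiplies all values by 4.47 to 5.30 and so acts mainly as a lower threshold. The order of the 2 shares thus depends on that threshold and on genes without a read. Above 1 FPKM in every tumor were 4 members (15.4%) and 28.4% of all genes. The median FPKM of the members was 0.0733, 0.517 and 0.174 in tumors 1, 2 and 3, and the median of all genes was 0.0805, 0.0992 and 0.0783.

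Of the 16 members with at least 20 reads over the tumors, tumor 2 had the highest value in 10, tumor 1 in 6 and tumor 3 in 0. Over all genes with as many reads, the highest value lay in tumor 2 for 34.2%, tumor 1 for 51.1% and tumor 3 for 14.7%. In 9 of these 16 members, 1 tumor had more than 2 times the FPKM of the other 2 tumors together, compared with 11.5% of all genes. For 8 of them this was tumor 2 (Klrb1a, Klre1, Klrk1, Klrc2, Klrc1, Klra4, Klra9 and Klra1), against 4.88% of all genes. Tumor 1 dominated in Klra2 alone (6.07% of all genes) and tumor 3 in 0 members (0.551% of all genes). With a share of over 50% in 1 tumor as the rule, 15 of the 16 members passed, and 32% of all genes. However, 7 of the 16 members (Klra4, Klra9, Klra1, Klra2, Klra17, Klri1 and Klrb1f) had under 20 reads outside their highest tumor and so passed the minimum of reads only through it, compared with 12% of all genes. They are 3 of the 10 members highest in tumor 2, 4 of the 6 highest in tumor 1, 4 of the 9 with a dominant tumor and 7 of the 15, which partly fixes these counts. With no minimum of reads, 1 tumor dominated in 15 of the 26 members (13.1% of genes with a read) and tumor 2 in 14 (5.76%), while tumor 2 was highest in 18 (38.5%). The members added without the minimum have under 20 reads over the tumors. In bulk RNA, fewer cells that express a gene and less RNA per cell cannot be told apart.

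**Figure D1:**
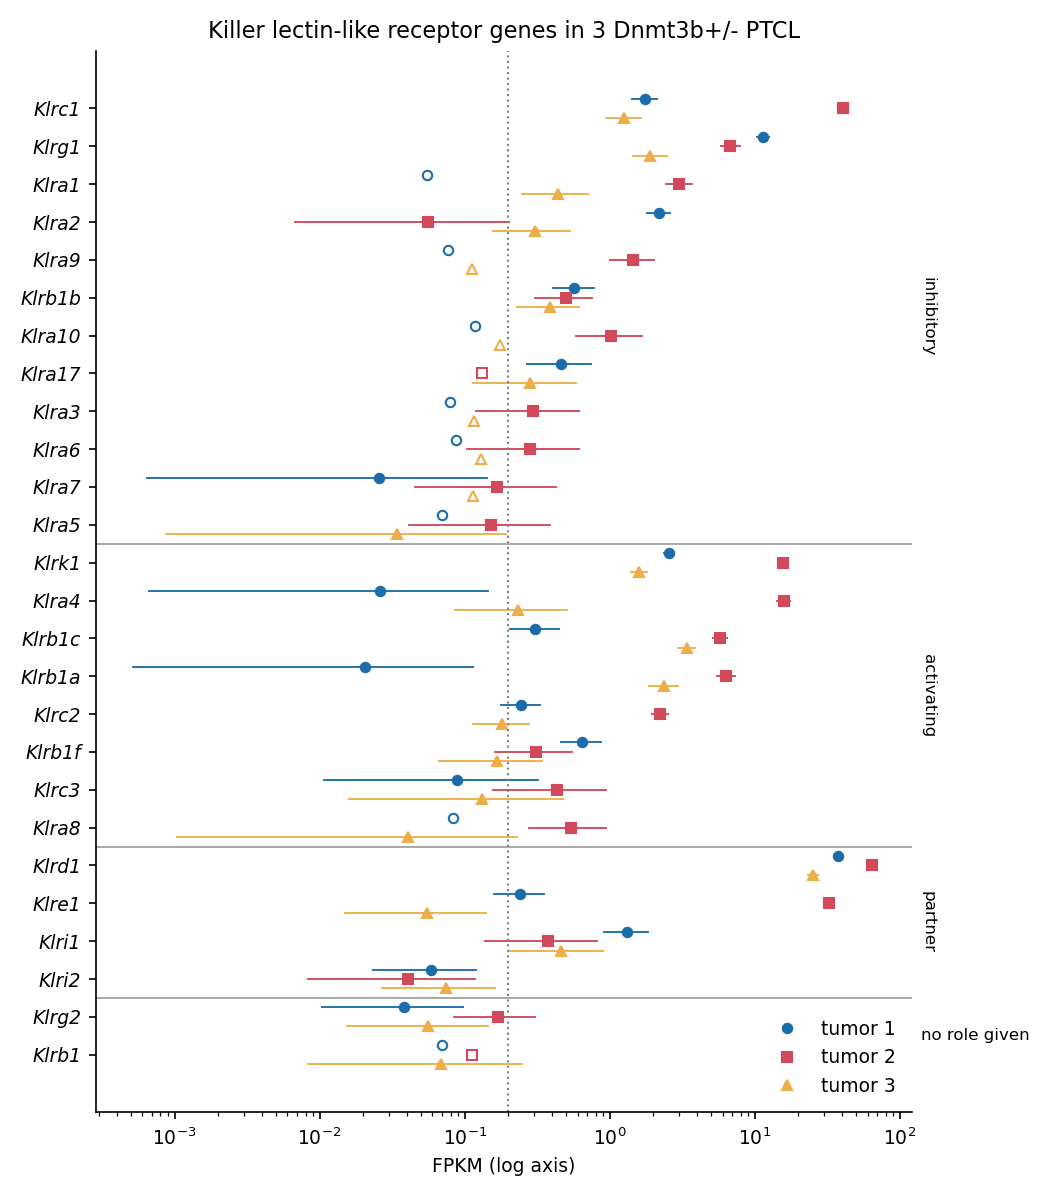
FPKM of the 26 killer lectin-like receptor genes (rows, grouped by role) in 3 tumors, on a log axis. Lines are 95% Poisson intervals of the reads, open symbols mark genes without a read and stand at the FPKM of 3 reads, and the dotted line is 0.2 FPKM. Tumor 2 lies far to the right for Klrc1, Klre1, Klrk1 and Klra4.

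The members summed to 59.3, 199 and 38.8 FPKM in tumors 1, 2 and 3. The sum of tumor 2 was thus 5.12 times that of tumor 3. Without tumor 2, the highest sum was 1.53 times the lowest, and without Klrd1, the most abundant member, the 3 tumors gave a ratio of 9.86. Klrd1 made up 62.7% of the sum in tumor 1 and 64.9% in tumor 3, but 32.4% in tumor 2, where Klrc1 added 20.4% and Klre1 16.2%. In tumor 1 the second gene was Klrg1 with 19.2%, and in tumor 3 it was Klrb1c with 8.72%.

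**Figure D2:**
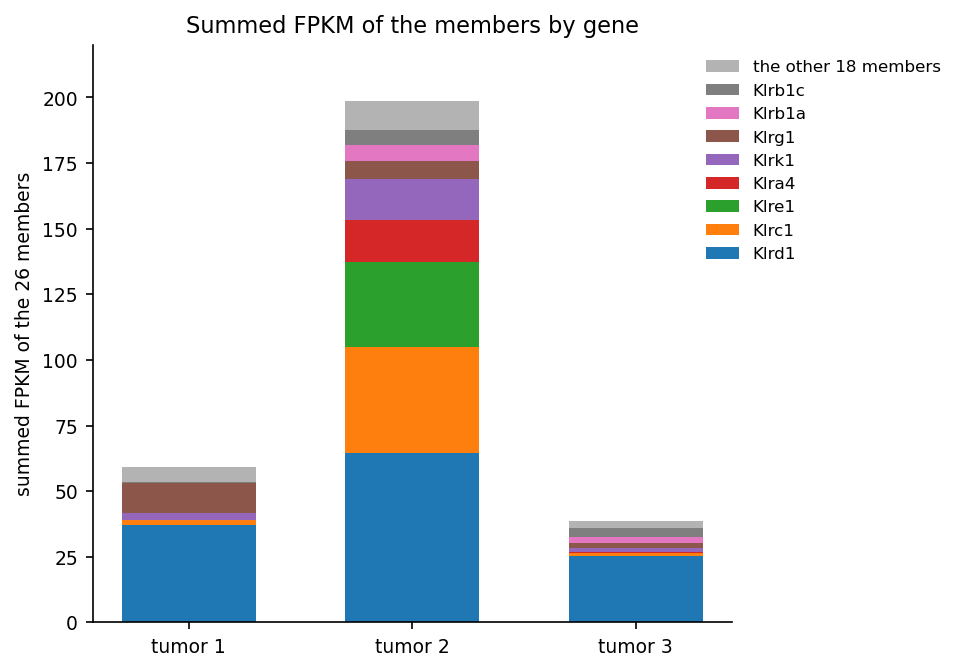
Summed FPKM of the 26 members in each tumor, with bars divided by gene. Klrd1 leads in every tumor, and Klrc1, Klre1, Klra4 and Klrk1 form a large part of the sum of 199 FPKM in tumor 2 only.

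Ligand genes of these receptors were expressed to very different degrees. H2-D1, a classical MHC class I molecule and ligand of Klra receptors, had 603, 1238 and 777 FPKM in tumors 1, 2 and 3. H2-T23, which encodes the Qa-1 molecule read by Klrc1 and Klrd1, had 8.61, 35.9 and 19.5 FPKM in tumors 1, 2 and 3. H2-K1 had 231, 373 and 273 FPKM, so all 3 MHC class I genes were highest in tumor 2 and lowest in tumor 1. The H2-K1 values did not give whole reads in any tumor. The reference genome comes from another mouse strain, and its effect on these 3 genes was not tested. Clec2d, the ligand of the inhibitory receptor Klrb1b, was one of the abundant genes of the locus with 205, 584 and 848 FPKM in tumors 1, 2 and 3. It was lowest in tumor 1 and highest in tumor 3. Clec2i had 10.3, 13.2 and 17.8 FPKM, and Clec2g stayed at or below 0.321 FPKM. Ulbp1, a stress-induced ligand of Klrk1, had 12.1, 6.71 and 3.92 FPKM in tumors 1, 2 and 3. Of 9 ligand genes of Klrk1 listed, 5 were found in the table. Ulbp1 and H60b exceeded 0.2 FPKM in every tumor, while Raet1d, Raet1e and H60c had at most 4 reads in any tumor. The annotated span of Raet1e contains those of H60b and Raet1d. Reads were aligned to mm10, which comes from another strain than these mice. Few reads on these genes thus need not mean a lack of expression. Cdh1 encodes E-cadherin, the ligand of Klrg1, and had 13.7, 0.934 and 0.410 FPKM in tumors 1, 2 and 3. It was thus mainly found in tumor 1.

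Klrd1 (CD94) is the shared partner chain of the NKG2 receptors and was the most abundant member in each tumor. Its FPKM was 37.2, 64.5 and 25.2 in tumors 1, 2 and 3 (mean 42.3 ± 20.1, SD, n = 3). With 1463, 1567 and 670 reads, the 95% Poisson intervals (35.3 to 39.1, 61.3 to 67.8 and 23.3 to 27.2 FPKM) do not overlap. Such intervals cover counting error only. Klrd1 was thus high in every tumor and highest in tumor 2, where it was 1.73 times tumor 1 and 2.56 times tumor 3.

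Klrc1 (NKG2A), the inhibitory chain that pairs with Klrd1, had 1.74, 40.6 and 1.26 FPKM in tumors 1, 2 and 3 (106, 1527 and 52 reads). It was above 1 FPKM in every tumor and far higher in tumor 2 than in the others. Tumor 2 was at 23.3 times tumor 1 (95% interval of the ratio from the reads, 19.2 to 28.7) and 32.2 times tumor 3 (24.4 to 43.3). Tumors 1 and 3 did not differ beyond counting error, with a ratio of 1.38 (0.980 to 1.96). As both chains form 1 receptor, their FPKM can be set side by side, and Klrd1 stood at 21.4 times Klrc1 in tumor 1, 1.59 times in tumor 2 and 19.96 times in tumor 3. The RNA of the partner chain was thus in large excess in tumors 1 and 3, and its excess was smallest in tumor 2.

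Klrc2 (NKG2C), the activating counterpart of Klrc1, had 0.246, 2.23 and 0.182 FPKM in tumors 1, 2 and 3 (44, 246 and 22 reads). It was high in tumor 2 alone, 9.06 times tumor 1 (6.55 to 12.8) and 12.2 times tumor 3 (7.91 to 19.9). By FPKM the inhibitory chain exceeded the activating one in every tumor, Klrc1 being 7.06, 18.2 and 6.92 times Klrc2 in tumors 1, 2 and 3. The exon lengths behind these ratios differ, with 1984 bases for Klrc1 and 5812 for Klrc2. Klrc1 had 106, 1527 and 52 reads against the 44, 246 and 22 of Klrc2. Much of the FPKM ratio thus rests on the exon lengths. The reads of both genes are uncertain in part, since 40.6% of the 100-base stretches in Klrc2 exons and 21.8% of those in Klrc1 exons occur a second time within or near the gene complex.

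Klre1 (NKG2I), a chain that pairs with Klri1 or Klri2, had the widest range of the members with at least 4 reads in every tumor. Its FPKM was 0.242, 32.2 and 0.0551 in tumors 1, 2 and 3 (26, 2136 and 4 reads). Tumor 2 was thus 133 times tumor 1 (90.6 to 204) and 585 times tumor 3 (228 to 2148), and held 99.1% of the summed FPKM. None of the 100-base stretches of its exons recurs in the complex. The partner Klri1 went the other way with 1.32, 0.377 and 0.460 FPKM in tumors 1, 2 and 3 (34, 6 and 8 reads). It was highest in tumor 1, 3.50 times tumor 2 (1.45 to 10.2), and Klri2 had at most 7 reads in any tumor.

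Klrk1 (NKG2D), the activating receptor for Ulbp1 and related ligands, is found on NK cells and activated CD8+ T-cells. Its FPKM was 2.56, 15.6 and 1.60 in tumors 1, 2 and 3 (565, 2132 and 239 reads). Klrk1 was above 1 FPKM in every tumor and highest in tumor 2, 6.11 times tumor 1 (5.57 to 6.72) and 9.77 times tumor 3 (8.54 to 11.2).

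Klre1, Klrd1, Klrk1, Klrc3, Klrc2 and Klrc1 follow each other on chromosome 6. All 6 were highest in tumor 2, compared with 38.5% of all genes with a read, although Klrc3 had only 2, 6 and 2 reads. The nearest members on both sides, Klrb1f and Klri1, were highest in tumor 1. The ends of this set were drawn with the values known and lie where the order changes among the members. This partly fixes the count of 6. The promoter windows of 4 of these 6 genes are shown because tumor 2 was at least 6.11 times each other tumor for them. Each window holds 250 bases before and 50 bases after the transcript start and was taken from RefSeq, build GRCm38.p6. They lie at chr6:129577963-129578262 on the plus strand for Klre1, and on the minus strand at chr6:129623815-129624114 for Klrk1, chr6:129660507-129660806 for Klrc2 and chr6:129678924-129679223 for Klrc1. Capitals mark TGTGGT, the core of RUNX motifs, or its reverse complement. Klre1 and Klrc2 each have a second window that is not shown, at chr6:129578036-129578335 with 0 matches and at chr6:129660547-129660846 with 2.
Klre1: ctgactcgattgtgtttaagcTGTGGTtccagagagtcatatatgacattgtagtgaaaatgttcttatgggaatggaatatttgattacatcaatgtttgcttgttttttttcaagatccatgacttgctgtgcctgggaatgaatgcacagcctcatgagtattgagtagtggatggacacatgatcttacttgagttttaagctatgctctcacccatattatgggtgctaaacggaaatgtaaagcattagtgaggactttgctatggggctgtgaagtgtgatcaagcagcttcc
Klrk1: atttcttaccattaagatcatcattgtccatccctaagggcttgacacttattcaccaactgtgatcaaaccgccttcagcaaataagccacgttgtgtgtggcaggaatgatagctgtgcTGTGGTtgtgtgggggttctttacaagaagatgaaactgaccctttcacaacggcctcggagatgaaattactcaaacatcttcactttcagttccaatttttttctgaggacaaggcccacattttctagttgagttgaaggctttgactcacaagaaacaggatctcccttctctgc
Klrc2: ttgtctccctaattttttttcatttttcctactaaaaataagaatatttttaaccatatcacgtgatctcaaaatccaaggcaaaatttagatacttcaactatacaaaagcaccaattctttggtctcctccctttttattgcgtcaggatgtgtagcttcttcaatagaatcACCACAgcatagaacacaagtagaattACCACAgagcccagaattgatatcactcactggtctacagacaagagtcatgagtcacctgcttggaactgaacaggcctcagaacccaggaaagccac
Klrc1: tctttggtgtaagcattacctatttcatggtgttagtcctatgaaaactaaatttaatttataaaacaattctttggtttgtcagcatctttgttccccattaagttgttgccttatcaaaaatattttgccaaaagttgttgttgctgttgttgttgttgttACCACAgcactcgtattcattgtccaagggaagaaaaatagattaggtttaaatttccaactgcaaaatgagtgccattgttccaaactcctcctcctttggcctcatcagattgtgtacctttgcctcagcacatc

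A window was found for 23 of the 26 members (28 windows in all), and none for Klrd1, Klrg1 and Klri2. A gene, member or not, was counted when any of its windows held a motif. TGTGGT occurred on either strand in 8 of the 23 members (34.8%), namely Klra1, Klrb1a, Klrb1c, Klrc1, Klrc2, Klrc3, Klre1 and Klrk1, and in 18.9% of 27025 genes with a window. The Klrc2 window shown is 98.3% identical to that of Klrc3, so these 2 are near copies. Klra4 and Klra9, which were high in tumor 2 alone, have 0 matches. Of the 8 motifs searched on both strands, the GATA core GATAAG was in 13% of the members and 8.58% of all genes, the AP-1 site TGACTCA in 13% and 5.95%, and the STAT site TTCNNNGAA in 17.4% and 9.55%. The ETS core GGAAGT was in 17.4% of the members and 26.5% of all genes, the T-box motif TCACACC in 4.35% and 4.6%, and the E-box CAGCTG in 0% and 18.3%. The N letters of TTCNNNGAA may hold CG, the last motif. CG, the dinucleotide that DNA methyltransferases modify, was in 95.7% of the members and 94.6% of all genes, but with a median of 2 per member against 8 over all genes. A match describes these letters only, and binding was not measured.

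Of the Klrb1 genes, whose products recognize Clec2 proteins, the activating forms varied most. Klrb1c, which encodes the NK1.1 antigen, had 0.308, 5.77 and 3.38 FPKM in tumors 1, 2 and 3 (28, 324 and 208 reads). Klrb1a had 0.0204, 6.31 and 2.35 FPKM from 1, 191 and 78 reads. Both were low in tumor 1 and high in tumors 2 and 3. Tumor 2 was 18.7 times tumor 1 for Klrb1c (12.7 to 28.7), and 1.71 times tumor 3 (1.43 to 2.04). For Klrb1a it was 2.68 times tumor 3 (2.05 to 3.54), and its ratio to the single read of tumor 1 was 309 (54.9 to 12283).

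Klrb1b, the inhibitory receptor for Clec2d, had 0.570, 0.497 and 0.389 FPKM in tumors 1, 2 and 3 (39, 21 and 18 reads) (mean 0.485 ± 0.0909, SD, n = 3). It was the most even of the 15 members with at least 20 reads in a tumor, and no pair of tumors differed beyond counting error. Klrb1f, an activating form, had 0.643, 0.312 and 0.166 FPKM from 40, 12 and 7 reads and was highest in tumor 1, at 3.86 times tumor 3 (1.71 to 10.2). The predicted gene Gm44511 runs on the same strand and shares 413 exon bases with Klrb1c and 599 with Klrb1b, so that reads in these bases cannot be assigned to 1 gene.

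Klrg1, an inhibitory receptor known from effector CD8+ T-cells and NK cells, was highest in tumor 1. Its FPKM was 11.4, 6.79 and 1.91 in tumors 1, 2 and 3 (495, 182 and 56 reads). The order of the tumors thus differed from that of Klrc1 and Klre1, tumor 1 being 1.68 times tumor 2 (1.41 to 2.00) and 5.98 times tumor 3 (4.53 to 8.03). Klrg1 lies on chromosome 6 apart from the other members, at chr6:122270596-122282882 of mm10.

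The Klra genes encode the Ly49 receptors for MHC class I. Of the 11, 9 had the highest value in tumor 2, compared with 38.5% of all genes with a read, and Klra17 and Klra2 in tumor 1. The Klra genes with a read summed to 2.69, 22.9 and 1.33 FPKM in tumors 1, 2 and 3. The 9 genes lie next to each other, from Klra5 to Klra1, but the ends of this run were set with the values known, and Klra17 lies 22.3 kb from Klra5. For 6 of the 9 the order of the tumors rests on under 20 reads in each tumor, and for 4 of these 6 (all but Klra8 and Klra10) the interval of tumor 2 overlaps that of another tumor. Those of the 9 with a read summed to 0.0519, 22.8 and 0.744 FPKM in tumors 1, 2 and 3. No read was found for 7 of the 9 genes in tumor 1 and for 5 in tumor 3, while each had reads in tumor 2. Of all genes with whole reads, 54%, 50.1% and 47.5% had a read in tumors 1, 2 and 3. The share of the run with a read was thus near that of all genes in tumor 3. The run had 2, 560 and 24 reads in tumors 1, 2 and 3. Reads of this run were thus few outside tumor 2.

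Klra4 (Ly49D), an activating receptor, accounted for 69.6% of the FPKM of this run in tumor 2. Its FPKM was 0.0261, 15.9 and 0.232 in tumors 1, 2 and 3 (1, 375 and 6 reads). It was high in tumor 2 alone, at 68.4 times tumor 3 (31.1 to 188) and 607 times the single read of tumor 1 (108 to 24054). Klra1 (Ly49A), an inhibitory receptor, had no read in tumor 1, 3.02 FPKM in tumor 2 and 0.437 in tumor 3, the latter 2 from 101 and 16 reads. Set against 3 reads in place of the count of 0, tumor 2 was 54.5-fold higher than tumor 1, and it was 6.91 times tumor 3 (4.06 to 12.6). The 95% intervals, from 2.46 FPKM in tumor 2 and up to 0.0681 FPKM in tumor 1, allow a smaller fold. Klra9 (Ly49I), also inhibitory, had 1.44 FPKM in tumor 2 from 35 reads and no read in tumors 1 and 3. Set against 3 reads in the same way, tumor 2 was 18.9-fold higher than tumor 1 and 12.8-fold higher than tumor 3. The 95% intervals, from 1.00 FPKM in tumor 2 and up to 0.0939 and 0.139 FPKM in tumors 1 and 3, allow smaller folds.

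Klra8 (Ly49H), the other activating gene of the run, had 0.537 FPKM in tumor 2 from 12 reads, no read in tumor 1 and 1 read in tumor 3. It is named after its values were seen, for comparison with Klra4, which stood at 29.6 times its FPKM in tumor 2. Their promoter windows (RefSeq, GRCm38.p6, minus strand, chr6:130067222-130067521 for Klra4 and chr6:130129849-130130148 for Klra8) share 259 identical bases, with 40 mismatches and 2 gaps, which is 86% of the alignment. A second Klra8 window, at chr6:130129786-130130085, is 57.7% identical to that of Klra4 and is not shown. Capitals mark the bases that differ.
Klra4: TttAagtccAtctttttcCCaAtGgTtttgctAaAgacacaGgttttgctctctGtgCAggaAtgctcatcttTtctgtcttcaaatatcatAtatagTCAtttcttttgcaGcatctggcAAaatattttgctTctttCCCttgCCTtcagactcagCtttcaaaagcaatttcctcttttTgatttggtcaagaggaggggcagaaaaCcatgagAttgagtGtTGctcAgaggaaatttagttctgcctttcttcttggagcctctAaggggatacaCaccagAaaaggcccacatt
Klra8: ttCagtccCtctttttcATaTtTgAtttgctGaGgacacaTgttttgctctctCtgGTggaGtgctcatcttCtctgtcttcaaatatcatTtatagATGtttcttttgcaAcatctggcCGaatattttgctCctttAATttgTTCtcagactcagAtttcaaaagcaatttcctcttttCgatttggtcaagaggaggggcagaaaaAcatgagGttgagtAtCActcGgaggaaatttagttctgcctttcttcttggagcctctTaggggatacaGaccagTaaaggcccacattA

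The table was made with the mm10 genome, which comes from C57BL/6J mice, and the number and sequence of Klra genes differ between mouse strains. Which Klra gene of FVB/N mice gave a read is therefore uncertain. Within the reference, 13.4% of the 100-base exon stretches of Klra8 and 10.1% of those of Klra9 occur elsewhere in or near the complex, and 0 of those of Klra4 do.

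Klra2 (Ly49B), which is known from myeloid cells, was highest in tumor 1. Its FPKM was 2.18, 0.0555 and 0.304 in tumors 1, 2 and 3 (127, 2 and 12 reads). It was high in tumor 1, 7.15 times tumor 3 (3.96 to 14.2) and 39.2 times the 2 reads of tumor 2 (10.6 to 327). The 6 myeloid cell markers, all above 0.2 FPKM in every tumor, summed to 252, 40.6 and 24.6 FPKM in tumors 1, 2 and 3, with Lyz2 as the most abundant. They were thus highest in the same tumor as Klra2, and their part in its value was not tested.

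The other 11 members had under 20 reads in each tumor and at most 1.02 FPKM (Klra10 in tumor 2). Klra17 (Ly49Q), with 17 reads in tumor 1, none in tumor 2 and 7 in tumor 3, had the most reads of them and was also highest in tumor 1. Of the 33 pairs of tumors for these members, the 95% Poisson intervals overlapped in 27, so their order was not detectable at this depth for most pairs.

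Adaptor genes were expressed in all tumors. Hcst encodes DAP10, through which Klrk1 signals, and had 29.4, 131 and 176 FPKM in tumors 1, 2 and 3. Tyrobp encodes DAP12, the adaptor of Klrc2, Klra4 and Klra8, and had 42.0, 27.0 and 15.1 FPKM. Hcst was lowest and Tyrobp highest in tumor 1, so neither adaptor was highest in tumor 2. Fcer1g, with 13.9, 7.36 and 2.97 FPKM, followed the order of Tyrobp. Both genes are also known from myeloid cells, and the 6 myeloid markers given with Klra2 (Lyz2 the most abundant) fell in the same order by their sums of 252, 40.6 and 24.6 FPKM, all 6 highest in tumor 1. Their part in the adaptor values was not tested. Cd247, which also serves the T-cell receptor, had 25.9, 20.9 and 32.4 FPKM. Of the phosphatases recruited by inhibitory members, Ptpn6 (SHP-1) had 65.0, 187 and 125 FPKM in tumors 1, 2 and 3. Inpp5d (SHIP-1) had 12.3, 20.7 and 18.2 FPKM, and Ptpn11 (SHP-2) was nearly even at 11.1, 10.6 and 10.7 FPKM.

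**Figure D3:**
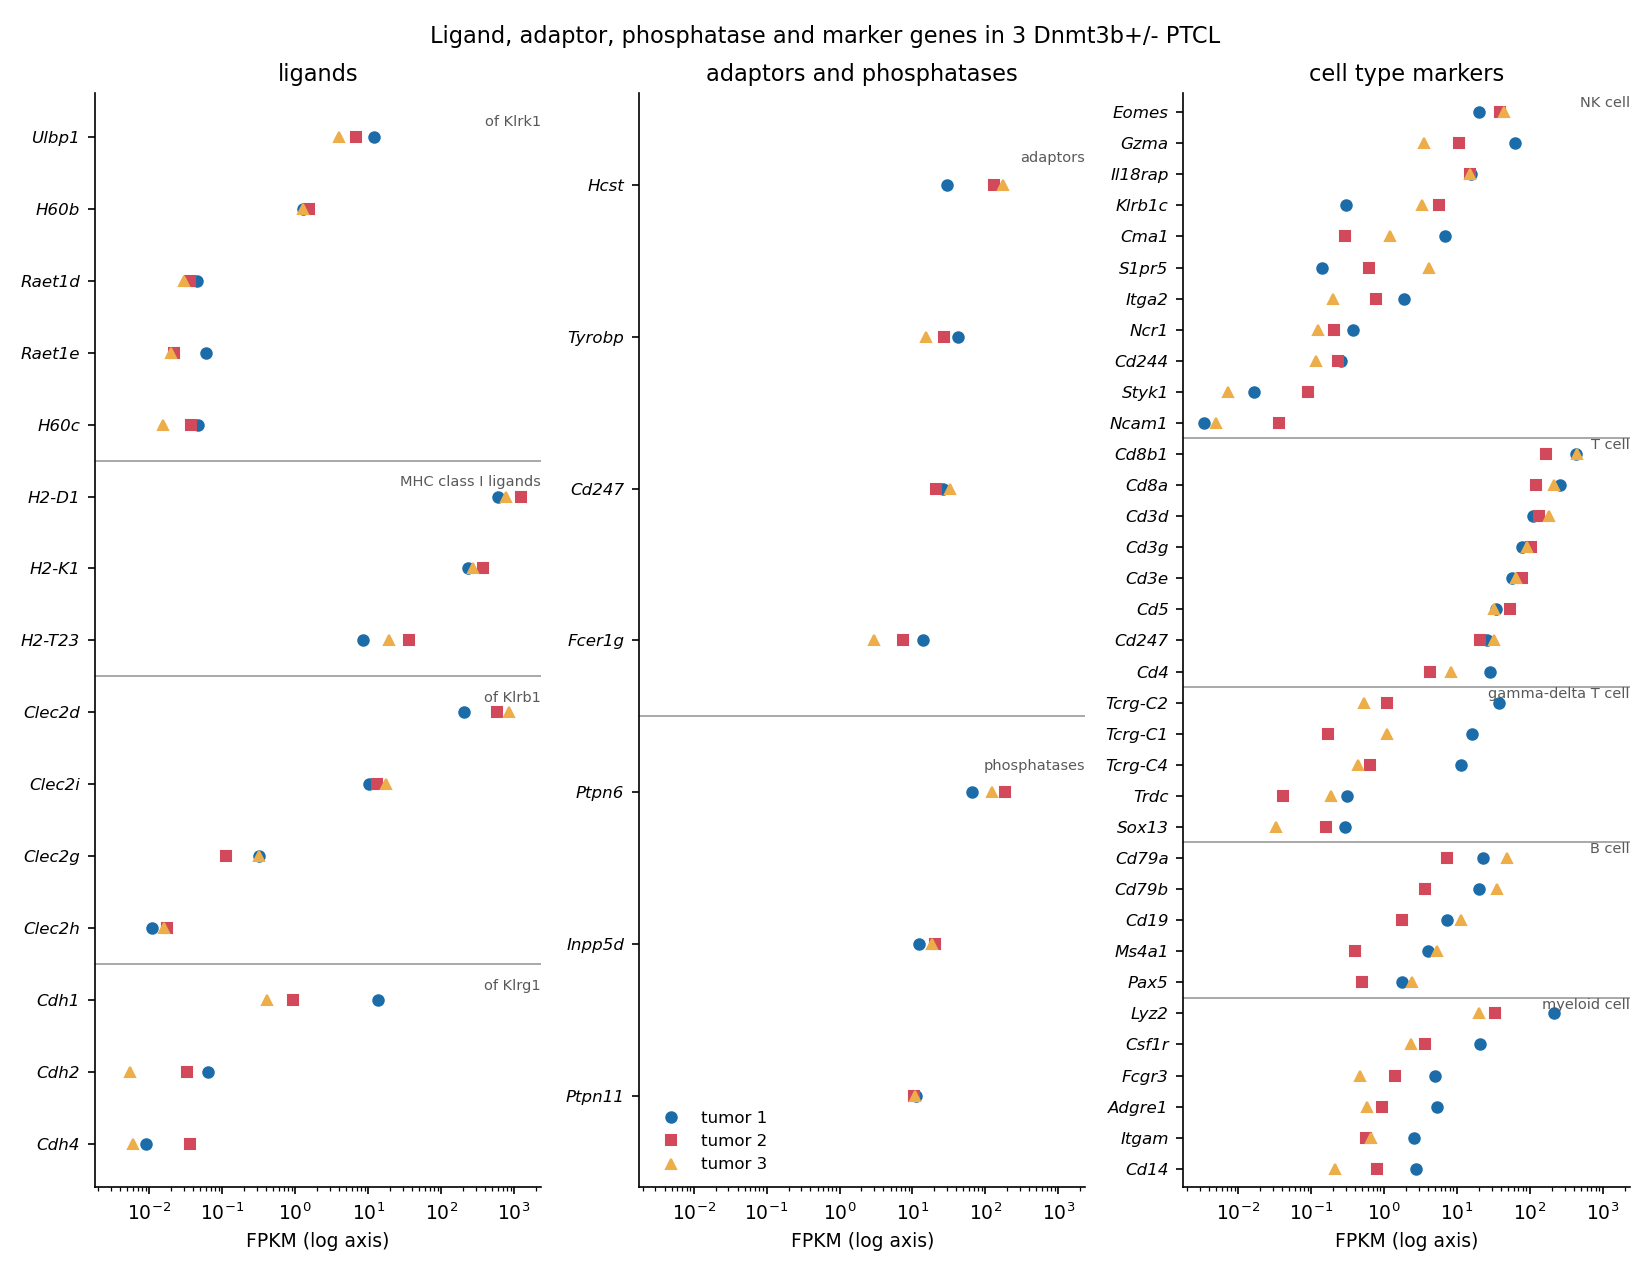
FPKM of ligand, adaptor, phosphatase and cell type marker genes in 3 tumors, on log axes, with lines between lists. A gene without a read is drawn at the value the table gives it. Il18rap and Ptpn11 are nearly even, and Cdh1, the gamma-delta T-cell markers and the myeloid markers lie highest in tumor 1.

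Among 9 transcription factors known from NK and effector CD8+ T-cells, tumors 1, 2 and 3 were highest for 4, 4 and 1. Over all genes with at least 20 reads, the tumors were highest for 51.1%, 34.2% and 14.7%. Tbx21 (T-bet) had 7.10, 34.3 and 26.3 FPKM in tumors 1, 2 and 3. Runx3 had 13.9, 36.9 and 18.5 FPKM and Eomes 20.02, 39.5 and 45.0 FPKM. These 3 genes were lowest in tumor 1. Zeb2 had 1.18, 0.267 and 0.164 FPKM and Id2 38.2, 10.9 and 12.1 FPKM, both highest in tumor 1. Tcf7, a factor of naive and memory T-cells, was the most abundant of the list with 175, 124 and 169 FPKM, and Bcl11b, Prdm1 and Nfil3 differed by at most 1.57 times between tumors.

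The 8 T-cell markers all exceeded 0.2 FPKM in every tumor and summed to 1028, 685 and 1075 FPKM in tumors 1, 2 and 3. Cd8b1 was the most abundant of them with 435, 166 and 443 FPKM, and Cd3e had 56.4, 78.1 and 65.3 FPKM. The 5 B-cell and 6 myeloid cell markers also all exceeded 0.2 FPKM in every tumor, so this threshold cannot check the T-cell label. Of 11 NK cell markers, 6 were above 0.2 FPKM in every tumor. All 11 summed to 109, 73.2 and 73.1 FPKM in tumors 1, 2 and 3, led by Gzma in tumor 1 and by Eomes in the other tumors. Several of these genes, such as Eomes, Gzma and Il18rap, are also known from effector CD8+ T-cells, and Klrb1c is itself a member of the family. Ncr1, which encodes the NK receptor NKp46, had 0.380, 0.205 and 0.125 FPKM in tumors 1, 2 and 3 (18, 6 and 4 reads), and Ncam1 had 0, 6 and 0 reads. Of the 11 markers, tumor 2 was highest for 3, which were Klrb1c, Styk1 (3, 10 and 0 reads) and Ncam1, while 6 were highest in tumor 1 and 2 in tumor 3. Over all genes with at least 20 reads, tumors 1, 2 and 3 were highest for 51.1%, 34.2% and 14.7%. Without Gzma, the list summed to 45.4, 62.5 and 69.5 FPKM, so its order between tumors depends on that gene. The part of NK cells in the receptor values was not tested.

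The 5 gamma-delta T-cell markers summed to 66.2, 2.11 and 2.28 FPKM in tumors 1, 2 and 3. In tumor 1 nearly all of this came from Tcrg-C2, Tcrg-C1 and Tcrg-C4 with 37.7, 16.3 and 11.6 FPKM. The other markers were low in every tumor, Trdc at 0.312, 0.0409 and 0.187 FPKM and Sox13 at 0.294, 0.159 and 0.0335 FPKM. The 5 B-cell markers, led by Cd79a, summed to 56.2, 13.7 and 104 FPKM and were lowest in tumor 2. Whether these RNAs came from gamma-delta T-cells or B-cells, and the part of such cells in the receptor values, was not tested.

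Between the members from Klrb1a to Klra2, an interval of 2638 kb on chromosome 6 (chr6:128609227-131247362 of mm10) that holds 24 members, the table has 34 other genes. The 5 with the highest mean FPKM were Clec2d, Clec2i, Gabarapl1, Cd69 and 2310001H17Rik. Gabarapl1, an autophagy gene close to Klre1, had 6.18, 11.4 and 2.03 FPKM in tumors 1, 2 and 3. Cd69, an early activation antigen of lymphocytes, had 4.81, 4.03 and 3.50 FPKM. The long noncoding gene 2310001H17Rik had 2.13, 6.45 and 1.68 FPKM and was thus highest in tumor 2, as was Gabarapl1. Of the 16 neighbors with at least 20 reads, tumors 1, 2 and 3 were highest for 4, 8 and 4, compared with 51.1%, 34.2% and 14.7% of all genes. In 3 neighbors, 1 tumor was at more than 2 times the other 2 together, compared with 11.5% of all genes. Summed over all 34 neighbors, tumor 3 was highest with 885 FPKM, of which Clec2d gave 95.8%.

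**Figure D4:**
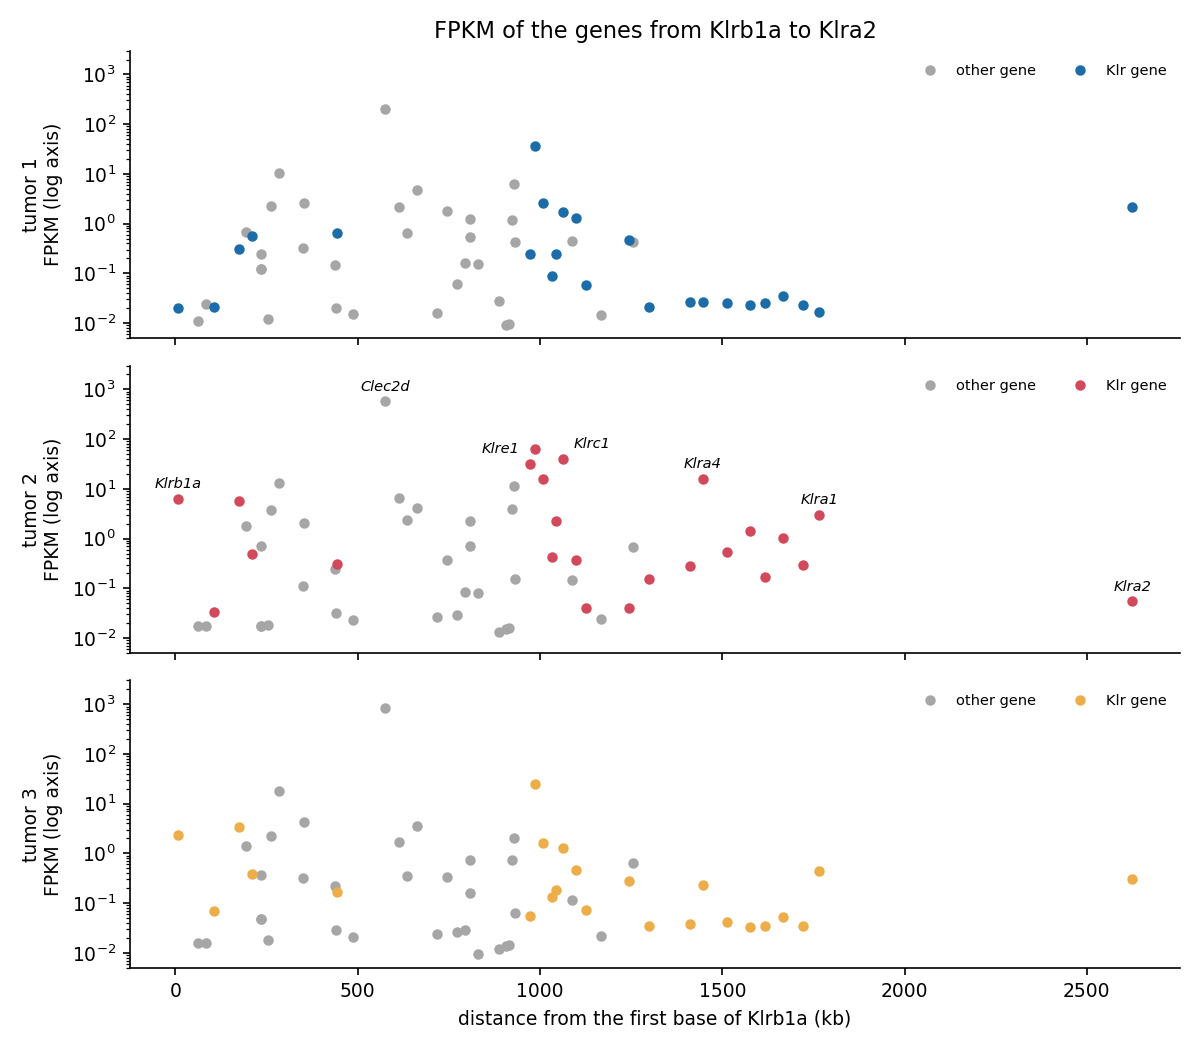
FPKM on a log axis of 24 members (colored) and 34 other genes (gray) against the distance of the gene's middle from the start of Klrb1a, in kb, for each tumor. Genes without a read are drawn at the value the table gives them. The run from Klra5 to Klra1 lies higher in tumor 2 than in tumors 1 and 3.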

How the data were processed

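RNA-seq of 3 Dnmt3b+/- PTCL was analysed, and the bisulfite libraries of the series were not analysed here. Paired-end reads (150 bp per the labels) were trimmed by the authors and aligned with STAR to mm10. Those with mapping quality 50 or above entered the SeqMonk quantitation. The deposited values are FPKM on a linear scale, 1 column per tumor. Versions of these tools and the strand setting are not given in the sources used here. Genes with no read carry a value worth 0.9 read. With merged exon lengths of GENCODE M21 (34125 genes) this gave the depth, and values of 92.5 to 92.7% of genes per tumor came within 0.02 read (plus a share of 2e-06 of the reads) of a whole number. Reads of all 26 members were whole. Depth recovery was tested on simulated data, where it first failed in a library with more genes at 1 read than at 0, and was corrected with no change in the depths of the 3 tumors.

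Intervals are exact Poisson or, for ratios of tumors, exact binomial intervals at 95%. Promoter windows came from RefSeq (GRCm38.p6). Exon stretches of 100 bases were searched in the complex and 300 kb on both sides. Members with at least 20 reads in 1 tumor were to be named, and the others given by count and range. Of these others, Klrc3, Klri2, Klra8, Klra10 and Klra17 are named with single values too, after their values were seen. The members and lists were chosen with earlier results of these data known. Alternatives were other FPKM thresholds, shares and read minimums, rescaled FPKM, median-of-ratios factors, and leaving out a tumor or Klrd1. Software was Biopython 1.88, SciPy 1.17.1, NumPy 2.4.6, pandas 2.3.3 and matplotlib 3.10.9 in Python 3.11.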

Additional observations from a re-analysis of the deposited data

How the results depend on the processing

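The number of members above 0.2 FPKM in every tumor was 7. It was 4 at 1 FPKM (28.4% of all genes) and 13 after rescaling every tumor to one common FPKM total, which multiplies all values by 4.47 to 5.30 (also 7 and 13 with genes lacking a read in a tumor left out, a setting added after seeing the data), and 9 to 10 when 1 tumor was left out, against 37.5 to 39.1% of all genes. The number of members with 1 dominant tumor was 9. It was 15 with a share of 50%, 15 with no minimum of reads, and 9 to 13 of 16 when 1 tumor was left out, where the rule between 2 tumors was met by 27.5 to 33.6% of all genes, against 11.5% with 3. With no minimum of reads, tumor 2 dominated in 14 members in place of 8 and was highest in 18 in place of 10, the added members having under 20 reads over the tumors. The other settings tried for these counts moved them by less than 1.5 times. The ratio of the highest to the lowest summed FPKM was 5.12. It was 9.86 without Klrd1 and ranged from 1.53 to 5.12 when 1 tumor was left out, with the lowest value without tumor 2. The counts for tumor 2 and the ratios and dominant tumors with 1 tumor left out were chosen after seeing the data. Of the 15 named members, the mean FPKM of 13 moved by over 1.5 times without 1 tumor, tumor 2 for 9 of them and tumor 1 for 4, so means are given for Klrd1 and Klrb1b only. No paired analysis was possible because the 3 tumors are independent and form no pairs. Fewer than 20 reads limit 11 members in every tumor, and 3 tumors do not allow a statement on Dnmt3b+/- PTCL in general.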
